A study of Drosophila melanogaster with 10 samples.

Results

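A set of 9 genes that encode surface receptors or surface and secreted markers of Drosophila blood cells was followed in cultured DL1 cells: NimC1, eater, crq, drpr, Sr-CI, Sr-CII, Sr-CIII, He and Hml. They were chosen by name, and every probe set that the deposited table annotates with 1 of these symbols and no other was used. Each of the 9 genes had 1 such probe set, which gave 9 of the 18769 probe sets that were not array controls. The table spells NimC1 as nimC1, a synonym in the RefSeq gene table (assembly Release 6 plus ISO1 MT). The study looked for genes that respond to a knockdown of nbr. DL1 cells were bathed in double-stranded RNA against nbr (CG9247), here called nbr RNAi, or against renilla, a luciferase gene absent from flies, here called control RNAi. All cells were collected 5 days after bathing, and each treatment had 5 independent replicates with 1 Affymetrix Drosophila_2 array each. The control cells therefore also took up double-stranded RNA, and untreated cells were not analysed here.

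DL1 is an embryo-derived Drosophila line used as a model of blood cells. Plasmatocytes, the macrophages of the fly, clear microbes and dying cells through surface receptors that bind a particle and trigger its engulfment. Some of these receptors, such as NimC1 and eater of the Nimrod family, bind bacteria. Others, such as drpr (draper) and crq (croquemort), are best known for the clearance of apoptotic cells. The Nibbler exonuclease that nbr encodes trims the 3' ends of microRNAs. Probes for several transcripts of a gene, or for more than 1 gene, can share a probe set. The suffixes of the crq and drpr probe sets mark probes shared between transcripts.

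The targeted gene was lower in every nbr RNAi culture. The nbr probe set (FBgn0032924) averaged 8.19 ± 0.49 in nbr RNAi and 11.35 ± 0.13 in control RNAi (log2 level, SD, n = 5 each), and limma gave a log2 fold change of -3.16 with a Benjamini-Hochberg adjusted p of 1.46e-04. Of the 7729 probe sets with a mean log2 level of at least 4, which were tested, limma called 2 (0.0259%), 1 of them nbr. Arrays correlated with each other at 0.977 to 0.998 across tested probe sets, and nbr RNAi array 5 had the lowest median correlation with the others, 0.982. On nbr RNAi array 5, 317 tested probe sets (4.10%) lay at least 1 log2 unit below the mean of nbr RNAi arrays 1 to 4. On the other 9 arrays between 0 and 17 probe sets lay that far below the rest of their group. Results that depend on nbr RNAi array 5 are therefore given with and without it.

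Of the 9 genes, 6 were above the threshold of 4 and 3 were not. NimC1, eater, drpr, crq, He and Hml lay at or above 4 on every one of the 10 arrays. The class C scavenger receptor genes Sr-CI, Sr-CII and Sr-CIII lay under 4 on every array. Of all probe sets other than controls, 41.2% had a mean of at least 4. NimC1 was the member nearest to the threshold on the upper side, with a mean log2 level of 7.12 over the 10 arrays, and Sr-CI was nearest on the lower side, at 2.39. Between these means lay 11.8% of probe sets. Over the whole array 57.2% of probe sets had a mean under 3, and 3.94% had a mean between 3 and 6. Levels of different probe sets depend on their probes, so the genes are not ranked by level here.

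**Figure D1:**
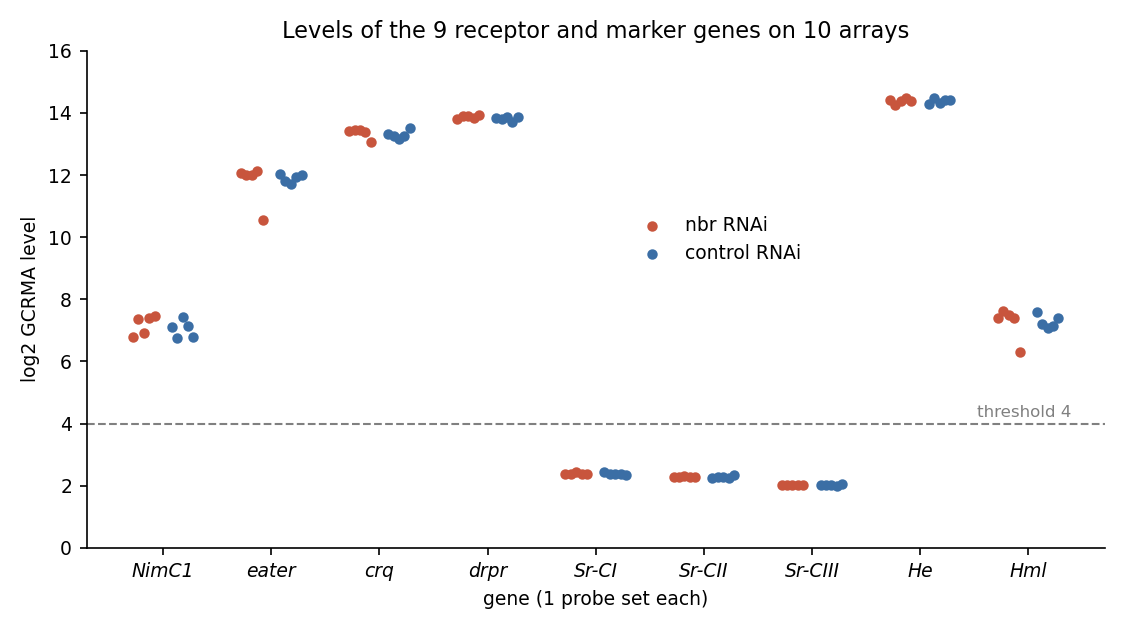
Log2 GCRMA level (vertical axis) of the 9 genes (horizontal axis) on the 5 nbr RNAi arrays (red, left) and the 5 control RNAi arrays (blue, right), 1 point per array, with the threshold of 4 as a dashed line. Of the 9 genes, 6 lie above the line on all 10 arrays, and Sr-CI, Sr-CII and Sr-CIII lie under it at 2.00 to 2.44.

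The absence of a signal for the 3 scavenger receptor genes rests on 1 probe set each. Sr-CI (FBgn0014033), known as a receptor for bacteria in the related S2 line, read 2.37, 2.37, 2.43, 2.39 and 2.39 on nbr RNAi arrays 1 to 5, against 2.44, 2.39, 2.39, 2.38 and 2.34 on control RNAi arrays 1 to 5. Sr-CII (FBgn0020377) ranged from 2.28 to 2.32 in nbr RNAi and from 2.24 to 2.33 in control RNAi. Sr-CIII (FBgn0020376) ranged from 2.02 to 2.03 in nbr RNAi and from 2.00 to 2.05 in control RNAi. These readings lay among the dimmest on the array, where 54.1% of probe sets averaged 2.5 or less, and they give no fold change. A single dim probe set does not exclude a transcript. Among 538 genes with several probe sets and at least 1 of them at or above 4, 290 (53.9%) also had a probe set under 4.

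NimC1 (FBgn0259896), the Nimrod receptor recognised by the plasmatocyte antibody P1, varied between arrays in both groups. It read 6.80, 7.35, 6.92, 7.41 and 7.46 on nbr RNAi arrays 1 to 5, against 7.10, 6.75, 7.44, 7.13 and 6.80 on control RNAi arrays 1 to 5. The groups overlapped over nearly their whole range. The log2 fold change of 0.14 (SE 0.17, 95% interval -0.23 to 0.51) missed the threshold, with a Benjamini-Hochberg adjusted p of 0.922 in limma. In control RNAi its SD was 0.28, and 5.21% of tested probe sets varied more in that group.

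The receptor gene eater (FBgn0243514), whose protein binds bacteria through EGF-like repeats, read 12.06, 12.01, 12.01, 12.13 and 10.54 on nbr RNAi arrays 1 to 5. On control RNAi arrays 1 to 5 it read 12.04, 11.81, 11.72, 11.93 and 12.01. Arrays 1 to 4 of nbr RNAi thus lay at the upper end of the control values or just above them, and array 5 lay below all control values. The mean was 11.75 ± 0.68 in nbr RNAi and 11.90 ± 0.14 in control RNAi (SD, n = 5 each). The log2 fold change was -0.15 (SE 0.28, 95% interval -0.76 to 0.46; limma, Benjamini-Hochberg adjusted p = 0.960), and the 2-sided exact permutation p was 0.968. Without nbr RNAi array 5 the log2 fold change turned to 0.15 with an interval of -0.0045 to 0.31 (limma, adjusted p = 0.487), and the SD of the other 4 nbr RNAi arrays was 0.057.

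The gene drpr (FBgn0027594), whose product is the fly counterpart of the worm engulfment receptor CED-1, was steady between arrays, with an SD of 0.061 in nbr RNAi and 0.061 in control RNAi. It read 13.79, 13.90, 13.89, 13.82 and 13.93 on nbr RNAi arrays 1 to 5, against 13.85, 13.79, 13.86, 13.72 and 13.87 on control RNAi arrays 1 to 5. Arrays 2, 3 and 5 of nbr RNAi lay above the highest control array, and the groups overlapped. The log2 fold change was 0.049 with a 95% interval of -0.051 to 0.15 (limma, Benjamini-Hochberg adjusted p = 0.899). In linear terms that interval runs from 0.965-fold to 1.11-fold. The drpr reading on nbr RNAi array 5 was not low: it was the highest of the 10.

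The scavenger receptor gene crq (FBgn0015924), which belongs to the CD36 family, read 13.41, 13.46, 13.44, 13.39 and 13.05 on nbr RNAi arrays 1 to 5. Control RNAi arrays 1 to 5 read 13.33, 13.26, 13.16, 13.26 and 13.50. Nbr RNAi array 5 was the lowest of the 10 and control RNAi array 5 the highest, with the other 4 nbr RNAi arrays between 13.39 and 13.46. The log2 fold change was 0.047 with a 95% interval of -0.15 to 0.24 (limma, Benjamini-Hochberg adjusted p = 0.960). Without nbr RNAi array 5 it was 0.12 with an interval of -0.021 to 0.26 (limma, adjusted p = 0.512).

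He (Hemese, FBgn0028430), a small glycosylated membrane protein found on all larval blood cells and used as a pan-hemocyte marker, showed the same mean in both groups. It read 14.42, 14.26, 14.37, 14.49 and 14.39 on nbr RNAi arrays 1 to 5, against 14.29, 14.48, 14.31, 14.42 and 14.42 on control RNAi arrays 1 to 5. The means were 14.38 ± 0.084 in nbr RNAi and 14.38 ± 0.083 in control RNAi (SD, n = 5 each). The log2 fold change was 0.0014 with a 95% interval of -0.12 to 0.12, or 0.919-fold to 1.09-fold (limma, Benjamini-Hochberg adjusted p = 0.999).

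Hml (hemolectin, FBgn0029167), a secreted clotting protein whose promoter is a standard driver of transgenes in plasmatocytes, repeated the pattern of eater. It read 7.40, 7.61, 7.48, 7.41 and 6.30 on nbr RNAi arrays 1 to 5, against 7.59, 7.19, 7.08, 7.14 and 7.39 on control RNAi arrays 1 to 5. Nbr RNAi array 5 lay below every other array, while the other 4 nbr RNAi arrays lay within or just above the control range. The log2 fold change was -0.038 (SE 0.23, 95% interval -0.54 to 0.47; limma, Benjamini-Hochberg adjusted p = 0.990). Without nbr RNAi array 5 it turned to 0.20 with an interval of -0.031 to 0.43 (limma, adjusted p = 0.505). Without control RNAi array 1 it was 0.041 (limma, adjusted p = 0.996).

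**Figure D2:**
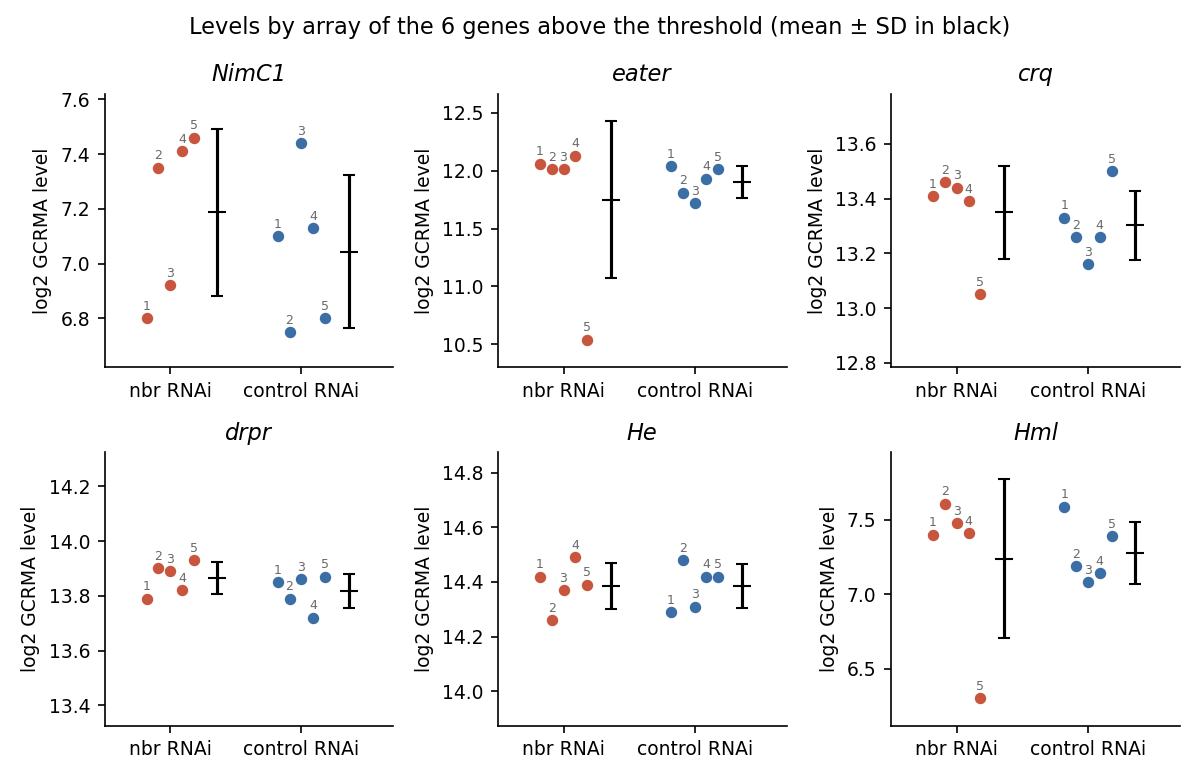
Log2 GCRMA level (vertical axes, each gene on its own range) of the 6 genes above the threshold on the nbr RNAi arrays (red, left) and the control RNAi arrays (blue, right), with the array number beside each point and the mean ± SD of 5 arrays in black. Array 5 of nbr RNAi stands at 10.54 for eater and 6.30 for Hml, below all other arrays, and at the top for NimC1 and drpr.

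None of the 6 tested genes passed the test between nbr RNAi and control RNAi. Limma called 0 of them at a Benjamini-Hochberg adjusted p under 0.05, where 0.0259% of all tested probe sets were called, and 0 reached an unadjusted p under 0.05, where 5.87% of all tested probe sets did. In 0 of the 6 did the groups fail to overlap, against 0.970% of all tested probe sets. The 2-sided exact permutation p over the 252 splits of the arrays ran from 0.230 for drpr to 0.976 for He. A missed threshold does not show equal levels, and the intervals state the sizes still possible. The 95% interval lay inside a 1.5-fold change either way for 5 of the 6 genes and for 92.9% of all tested probe sets. For eater the interval ran from 0.589-fold to 1.38-fold. The level per expressing cell and the share of cells that express a gene cannot be told apart in such bulk samples.

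Leaving out nbr RNAi array 5 changed no call among the 6 genes. Limma again called 0 of them, where 0.0388% of all probe sets tested without that array were called. The lowest of their unadjusted p values was 0.0557, for eater (limma, adjusted p = 0.487). In that fit the log2 fold changes of NimC1, drpr and He were 0.075, 0.033 and 0.00033. The intervals of eater, crq and Hml narrowed, and that of NimC1 did not.

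**Figure D3:**
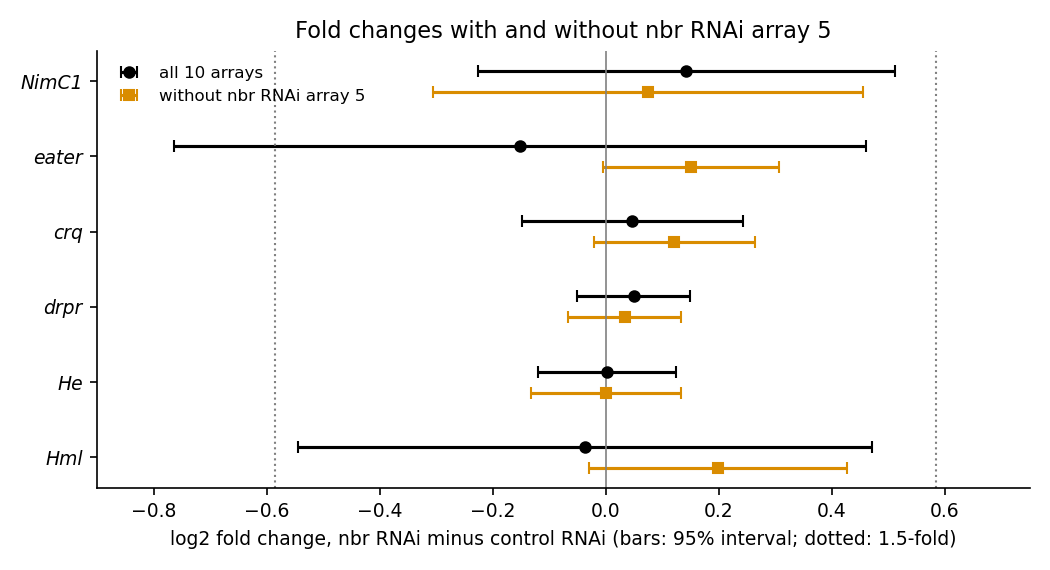
Log2 fold change of nbr RNAi minus control RNAi (horizontal axis, bars are 95% intervals) for the 6 genes above the threshold, with all 10 arrays (black circles) and without nbr RNAi array 5 (orange squares), with dotted lines at a 1.5-fold change. Every interval includes 0, and the values of eater and Hml move from -0.15 and -0.038 with all arrays to 0.15 and 0.20 without array 5.

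The 6 genes split in how far nbr RNAi array 5 lay from the other nbr RNAi arrays. For eater that array stood at -1.51 log2 units from the mean of the other 4, a 2.86-fold lower level, and 1.84% of tested probe sets lay at least as far below. For Hml the gap was -1.18, a 2.26-fold lower level, and 2.95% of tested probe sets lay at least as far below. The gap was -0.37 for crq, which 12.8% of tested probe sets reached. NimC1, drpr and He went the other way or stayed level, at 0.34, 0.08 and 0.01. The low readings of array 5 thus did not take in the whole blood-cell set, and the cause was not tested. The nbr level on that array was 8.84, the highest of the nbr RNAi arrays and below every control array.

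**Figure D4:**
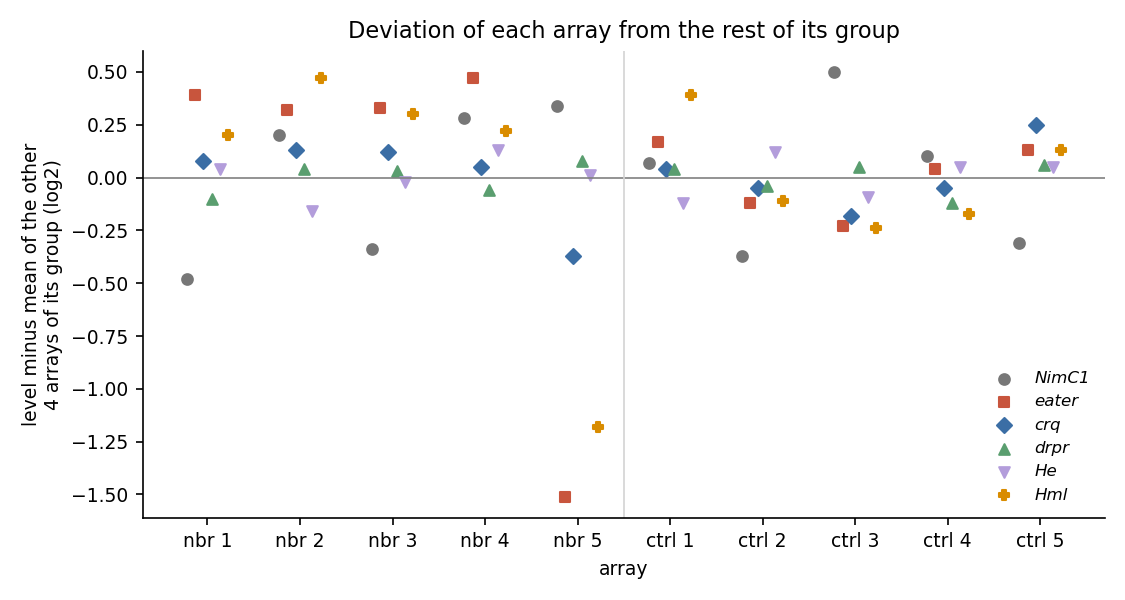
Level on each array minus the mean of the other 4 arrays of its group (vertical axis, log2 units) for the 6 genes above the threshold, with the nbr RNAi arrays at the left and the control RNAi arrays at the right. The gaps stay between -0.48 and 0.50 except on nbr RNAi array 5, where eater is at -1.51 and Hml at -1.18.

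Some of the 9 genes are neighbours on their chromosome. In the order of protein-coding genes in the RefSeq table, He lies directly next to NimC1 on arm 2L, with NimB5 on the far side of He and Cyp28a5 and NimC2 beyond NimC1. The probe sets of NimB5, He, NimC1 and Cyp28a5 averaged 5.22, 14.38, 7.12 and 12.10, all above the threshold, and that of NimC2 averaged 2.17. Sr-CI and Sr-CIII also lie next to each other on 2L, and both were under the threshold. The gene ed on the other side of Sr-CIII was above it, at 10.63. The genes eater on 3R and drpr on 3L were above the threshold, while the 2 nearest genes on each side of them averaged between 1.84 and 2.56. No coordinates are given, since the array files name no genome build. Neighbours were looked up after the levels of the 9 genes were known.

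The genes with the most similar pattern over the 10 arrays were picked among all tested probe sets with 1 symbol, 2 per gene, by Pearson's correlation. For eater these were PlexB, a semaphorin receptor gene, with r = 0.993 and Spearman's rho = 0.964, and l(3)80Fj with r = 0.992 and rho = 0.745. PlexB read 8.35 on nbr RNAi array 5, against a control mean of 10.38 ± 0.14 (SD, n = 5). Without that array the correlations with eater were 0.943 for PlexB and 0.874 for l(3)80Fj. For Hml they were SA1 (r = 0.986, rho = 0.952) and Plp (r = 0.985, rho = 0.964), with r of 0.945 and 0.937 without nbr RNAi array 5. For crq they were Drep4 (r = 0.975, rho = 0.952) and ADD1 (r = 0.970, rho = 0.964), with r of 0.953 and 0.955 without it. The most similar genes to drpr were CG6805 (r = 0.967, rho = 0.976) and CG6428 (r = 0.944, rho = 0.952). Those to NimC1 were AsnRS (r = 0.915, rho = 0.782) and CG1620 (r = 0.892, rho = 0.855), and those to He were CG17544 (r = 0.932, rho = 0.939) and Tsen54 (r = 0.895, rho = 0.830). These are the highest values among all these probe sets on the same 10 arrays, and they describe these arrays only. No member of the 9 was among the genes most similar to another.

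Other genes of the Nimrod family and of particle recognition were also split by the threshold. Of 21 further genes on this list, which was not limited to surface receptors, 18 were matched. Of these, 13 had a probe set at or above 4 and 5 did not. By probe set, 14 of 20 were at or above 4, against 41.2% of all probe sets other than controls. Within the Nimrod family, NimB1, NimB2, NimB5 and NimC3 were above it, with mean log2 levels of 7.17, 9.08, 5.22 and 10.03. NimB3, NimB4, NimC2 and NimC4 were under it, at 2.18, 1.98, 2.17 and 2.02. NimC4, also known as simu, encodes a receptor that acts upstream of drpr in the clearance of apoptotic cells. These Nimrod genes were named after their values were seen. Sr-CIV, the remaining class C scavenger receptor gene of the list, averaged 2.10, so that all 4 genes of that class were under the threshold.

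No tested gene of this list passed. Limma called 0 of 14 probe sets, where 0.0259% of all tested probe sets were called. Of the log2 fold changes 11 were positive and 3 negative (52.9% of all tested probe sets were positive). Their median was 0.085, against a median of 0.0056 over all tested probe sets. PGRP-LC, a receptor for bacterial peptidoglycan, was at 0.14 with a 95% interval of -0.0080 to 0.28 (limma, Benjamini-Hochberg adjusted p = 0.854). Pvr, a receptor tyrosine kinase gene of blood cells, was at 0.094, and the integrin gene scb at 0.091 (limma, adjusted p = 0.862 and 0.865). Among 13 matched genes of the CD36 family besides crq, 6 were at or above 4 and 0 were called. Of these, pes, a receptor for mycobacteria in fly cells, was at 0.14, emp at 0.19 and Snmp1 at -0.24 (limma, adjusted p = 0.879, 0.920 and 0.925). Without nbr RNAi array 5 pes was at 0.144, emp at 0.295 and Snmp1 at 0.048, so the sign of Snmp1 depended on that array.

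Genes that act after the receptors were nearly all above the threshold. Over the whole array 41.2% of probe sets other than controls averaged at least 4, and 0.0259% of tested probe sets were called. All 18 engulfment signalling genes were matched and had at least 1 probe set at or above 4. Of their 21 tested probe sets 0 were called, with a median log2 fold change of 0.032. Traf6 was at 0.18 and the adaptor gene Crk at 0.079 (limma, Benjamini-Hochberg adjusted p = 0.849 and 0.866). The gene olf186-F, which encodes the calcium channel Orai, was at 0.099 on 1 probe set (limma, adjusted p = 0.854). Its other probe set went the other way, at -0.18 (limma, adjusted p = 0.876). All 17 matched genes of actin nucleation and the phagocytic cup were tested, with 0 of 19 probe sets called and a median of 0.022. That list also holds Vps18 (dor), a subunit of an endosomal tethering complex, at -0.0030. The actin capping gene cpa was at 0.13, Arpc3B of the Arp2/3 complex at 0.16 and Abi of the SCAR complex at 0.089 (limma, adjusted p = 0.849 for cpa and Arpc3B and 0.866 for Abi). All 22 matched genes of phagosome maturation were tested too, with 0 called and a median of 0.049. Vps39 was at 0.12, the proton pump gene Vha55 at 0.071 and the protease gene cathD at 0.060 (limma, adjusted p from 0.867 to 0.876).

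A broader set of annotated genes was also counted. The deposited table carries a process term with the word phagocytosis for 5 of the 9 genes, namely NimC1, eater, crq, drpr and Sr-CI. It carries one for 197 other genes, whose list was taken after the data were seen. Of their 233 probe sets 171 were tested, and 0 were called, where 0.0259% of all tested probe sets were called. The median log2 fold change was 0.0090, with 99 positive and 72 negative values, and 8 probe sets had an unadjusted p under 0.05 in limma, where 5.87% of all tested probe sets did.

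**Figure D5:**
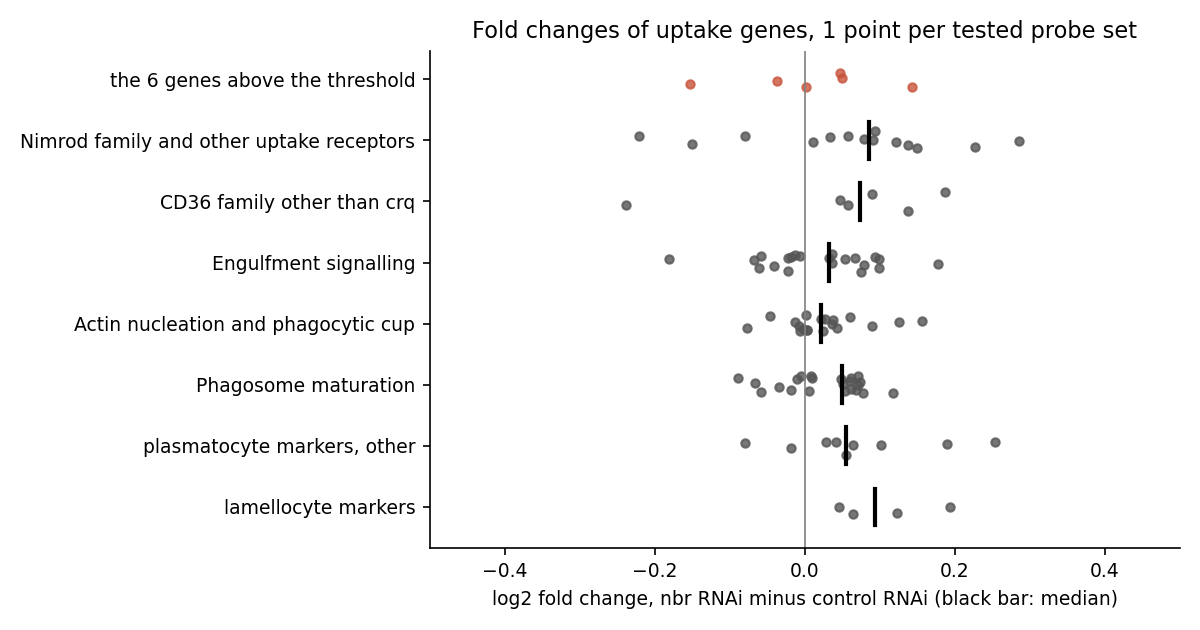
Log2 fold change of nbr RNAi minus control RNAi (horizontal axis) for each tested probe set of the 6 genes above the threshold (red) and of 7 gene lists (grey), with the median of each list as a black bar. Values lie between -0.24 and 0.29, and the list medians between 0.022 and 0.094.

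The label of the line as blood-cell-like was set against other markers. Of 15 matched plasmatocyte markers outside the 9 genes, 9 were at or above 4 and 6 were under it on all their probe sets. By probe set, 9 of 18 were at or above 4, against 41.2% of all probe sets other than controls. The blood-cell transcription factor genes srp (a GATA factor) and ush (its partner) were above, at mean log2 levels of 12.46 and 11.70. The early plasmatocyte determinants gcm and gcm2 were under, at 2.37 and 2.10. Of the collagen IV pair, vkg had a probe set at 11.43 and another at 2.28, and the only probe set used for Col4a1 was at 2.18. The probe set at 11.43 is named veg in the deposited table and was assigned to vkg through RefSeq. Per array, the mean over this list's probe sets ran from 7.02 to 7.13 in nbr RNAi and from 6.99 to 7.06 in control RNAi. None was called, with a median log2 fold change of 0.055 over 9 tested probe sets. SPARC was at 0.19, Pxn at 0.25 and Pvf2 at 0.10 (limma, Benjamini-Hochberg adjusted p from 0.849 to 0.876). The other Pxn probe set was under 4, at a mean log2 level of 2.12.

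Markers of the other blood-cell classes differed from each other on this threshold. All 5 crystal cell markers were under it, with 3.18 as the highest reading on any array, including lz and the prophenoloxidase genes PPO1 and PPO2. Of 4 lamellocyte markers 3 were above it. The surface marker gene atilla averaged 11.10 ± 0.26 in nbr RNAi and 10.97 ± 0.12 in control RNAi, and PPO3 averaged 8.16 ± 0.23 in nbr RNAi and 7.96 ± 0.12 in control RNAi (log2 level, SD, n = 5 each). The third, mthl4, was at 0.064 as a log2 fold change on 1 of its 2 probe sets and at 0.046 on the other, and none of the 3 genes was called (limma, adjusted p from 0.866 to 0.962). The mean over the lamellocyte probe sets ran from 9.36 to 9.46 in nbr RNAi and from 9.28 to 9.40 in control RNAi.

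Few markers of neurons, muscle, fat body and germline were above the threshold, while most glia markers were. All 7 fat body and all 5 germline markers were under it, with highest readings of 2.24 and 3.52. Of 6 neuron markers elav was above, of 6 muscle markers TpnC73F, and of 4 glia markers moody, nrv2 and Gs2, while the glial determinant repo averaged 3.36. None was called by limma, with log2 fold changes of -0.16 for elav, -0.045 and -0.0080 for the TpnC73F probe sets, 0.23 for moody, -0.011 for nrv2 and -0.0090 for Gs2 (Benjamini-Hochberg adjusted p from 0.885 to 0.996). The mean over each list's probe sets ran, for neuron markers, from 2.59 to 2.65 in nbr RNAi and from 2.63 to 2.65 in control RNAi. For glia markers it ran from 8.12 to 8.45 in nbr RNAi and from 8.02 to 8.30 in control RNAi.

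The same comparison can be read in the authors' own statistics. In the authors' deposited table their signed fold ranges from -1.11 for eater to 1.10 for NimC1, with unadjusted p-values from 0.236 for drpr to 0.980 for He. The q-values that the authors' deposited table gives for the 9 genes lie between 36.6% and 38.5%, against 0% for nbr.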

How the data were processed

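The authors deposited log2 levels per probe set, made with GCRMA, and Partek is also named, per the submitters' processing notes. Versions and the order of steps: not given in the sources used here. As GCRMA models background by probe sequence and equalises the arrays' quantiles, these values cannot show a change in the total RNA of a cell. Per the file headers, the authors' table also holds their own signed fold, p-value, q-value (in percent) and score, of which the first 3 are quoted. Both deposited tables held the same log2 values in 189520 of 189520 cells. Per the labels' protocols, TRIzol-extracted total RNA was amplified as cDNA (Ovation Pico WTA) and carried a biotin label.

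Symbols came from the deposited table and were updated through RefSeq by accession (13319 probe sets) or by symbol (316), and 138 were kept. Probe sets other than the 183 controls with a mean of at least 4 over the 10 arrays were fitted with lmFit and eBayes (limma 3.58.1, R 4.3.3), nbr RNAi minus control RNAi without covariates, with 2-sided tests, Benjamini-Hochberg adjustment over all 7729, and calls at an adjusted p under 0.05. The fit was tested on simulated data. Single genes were also compared by exact permutation over the 252 splits. The number of arrays limits the precision.

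The 9 genes, the 13 gene lists and the tests were chosen with earlier results of these data known. Named are the 9 genes, nbr, up to 3 tested genes per list with the smallest p and 2 most similar genes per gene above the threshold. Genes outside this rule were named after their values were seen, chiefly those listed under the threshold and chromosome neighbours. Alternatives were other filters and normalizations, array weights, a robust fit, a replicate block, 1 probe set per gene, other thresholds and leaving out each array. No sequences were used here. Python 3.11.15 with pandas 2.3.3 made the tables, and matplotlib 3.10.9 drew the plots.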

Additional observations from a re-analysis of the deposited data

Results flagged for a closer look

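Among the 18 groups of 5 arrays formed by the 9 genes and the 2 for nbr, 4 held an array that stood apart from the other 4 by Dixon's ratio of gap to range, and chance alone gives about 1 in 20 groups. Among all tested probe sets the share was 15.5% in nbr RNAi and 6.08% in control RNAi, and in 7.01% nbr RNAi array 5 was the low array that stood apart. The flags on that array are not independent of each other. Nbr RNAi array 5 was such an array for eater, at 10.54 with the nearest nbr RNAi array at 12.01, for crq, at 13.05 with the nearest at 13.39, and for Hml, at 6.30 with the nearest at 7.40. Nbr RNAi array 3 was one for Sr-CI, at 2.43 with the nearest at 2.39, a difference within readings that all lie under the threshold of 4.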

How the results depend on the processing

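Of the 9 genes, 6 were at or above the threshold in each of 15 alternatives, including thresholds of 3, 5 and 6. Those thresholds could not change the count, as the nearest means were 2.39 and 7.12. In each of 19 alternatives 0 of the 9 were called. Sr-CI, Sr-CII and Sr-CIII were tested only in the fit without a filter on dim probe sets. NimC1, crq, drpr and nbr kept the sign of their log2 fold change in all 18 alternatives, with nbr from -3.32 to -3.00 and called each time (limma, Benjamini-Hochberg adjusted p from 4.02e-06 to 0.0187). With array weights eater turned to 0.12, Hml to 0.15 and He to -0.0076, and with median centring He was at -0.0047. Over the 10 fits without 1 array each, eater ran from -0.25 to 0.15, Hml from -0.13 to 0.20, He from -0.025 to 0.033, NimC1 from 0.069 to 0.24 crq from 0.011 to 0.12 and drpr from 0.026, without control RNAi array 4, to 0.069, none of them called (lowest limma adjusted p 0.487). The cause of these turns was not tested. Over all tested probe sets limma called 4 with median centring, 4 with array weights, 4 at an adjusted p under 0.1 and 1 with the replicate number as a block, against 2 as reported, and 1 to 3 when an array was left out. Same-numbered arrays of the 2 groups deviated from their group means with correlations of -0.465 to 0.184 across tested probe sets. Of 5 nbr RNAi arrays, 0 correlated best with the control array of their own number. The labels give only that number, and these correlations cannot show whether same-numbered cultures were handled together. With this replicate block no call among the 6 tested genes changed. The dim readings of Sr-CI, Sr-CII and Sr-CIII give no limit on a change in them.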

Other observations

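Of the 82 tested probe sets in the 5 lists of uptake genes, 2 (2.44%) were also lower by at least 1 log2 unit on nbr RNAi array 5 than on the mean of nbr RNAi arrays 1 to 4, a smaller share than the 4.10% of all tested probe sets. Dscam1, an immunoglobulin-family gene with many splice forms in blood cells and neurons, read 4.86 on that array. It read 6.39 to 7.26 on the other nbr RNAi arrays and 6.42 to 7.23 in control RNAi. The other Dscam1 probe set was under 4, averaging 2.08 in nbr RNAi and 2.07 in control RNAi. Snmp1, a CD36-family gene best known from olfactory neurons, read 5.64 on nbr RNAi array 5. It read 6.81 to 7.29 on the other nbr RNAi arrays and 6.64 to 7.35 in control RNAi. These genes were named after their values were seen, and the cause was not tested.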
